A study of Mus musculus with 12 samples.

Results

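Neuropeptide precursor genes encode secreted proproteins that are cut into short signalling peptides. The genes examined were Tac1, Penk, Gal, Cck, Npy, Sst, Nts, Vip, Pomc and Trh, which are 10 of the 18193 genes named on the array. They were chosen by symbol after a rise of Tac1 and a fall of Trh had been seen in ESC lines with mutant Ring1B. The rise and fall in those lines are therefore given as a description, without a test. The 10 genes were represented by 12 of 45037 probe sets, with 2 probe sets each for Tac1 and Pomc.

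RNA of 6 mouse ESC lines was hybridized to Affymetrix arrays, with 1 array before and 1 array after treatment with 4-hydroxytamoxifen (OHT) for each line, or 12 arrays in all. Every line had the genotype Ring1A-/-; Ring1B fl/fl; Rosa26::CreERT2 on a 129/B6 hybrid background, so all groups, the untreated controls included, lacked Ring1A. OHT was given at 800 nM for 24 hours and activates the Cre recombinase that deletes endogenous Ring1B, and the treated arrays represent day 2. The lines were stable transfectants with an empty vector (mock transfectant, 1 line), WT Ring1B (#1 and #3), Ring1B (I53S) (#1 and #4) or Ring1B (I53A) (#1). I53S and I53A change a residue on the surface that contacts the E2 enzyme, and the 3 lines that carry them are called mutant lines below. A construct was thus represented by 1 or 2 stable lines, and nothing in the sources used here says that a line was grown and measured more than once, so the spread given is that between lines. ESCs were grown either on irradiated embryonic fibroblasts or on gelatin, and the labels do not say which was used for a given array.

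The precursor enters the secretory pathway, is cleaved at pairs of basic residues by prohormone convertases, is trimmed and often amidated, and is stored in dense-core granules until release. The peptides act on G protein-coupled receptors and are degraded by peptidases outside the cell. They are best known from neurons and endocrine cells. Ring1A and Ring1B are the catalytic subunits of Polycomb repressive complex PRC1, which mono-ubiquitinates histone H2A and holds developmental genes silent in ESCs.

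The promoter stretches of Tac1, Trh and Gal are shown because these genes changed most in level among the members with a RefSeq promoter entry, and those of Sst and Vip because the cAMP response element was worked out on such precursor genes. Each is the 250 bases before a transcript start in RefSeq (GRCm38.p6), written in the direction of the gene, and capitals mark every TGACG and its reverse complement CGTCA. In Sst and Vip the transcript start used lies inside the gene span of the same annotation.
Tac1 (chr6:7554811-7555060, plus strand): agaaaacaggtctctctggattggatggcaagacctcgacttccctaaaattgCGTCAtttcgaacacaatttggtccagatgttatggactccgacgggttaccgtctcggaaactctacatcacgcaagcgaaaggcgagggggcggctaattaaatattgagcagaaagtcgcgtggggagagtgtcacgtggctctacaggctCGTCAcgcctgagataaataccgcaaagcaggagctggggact
Trh (chr6:92244651-92244900, minus strand): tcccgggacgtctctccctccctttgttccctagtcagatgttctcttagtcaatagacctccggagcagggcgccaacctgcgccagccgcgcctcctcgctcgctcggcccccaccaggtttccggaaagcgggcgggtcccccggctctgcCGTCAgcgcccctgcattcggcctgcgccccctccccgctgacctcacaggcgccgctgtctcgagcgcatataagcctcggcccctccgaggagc
Gal (chr19:3414545-3414794, minus strand): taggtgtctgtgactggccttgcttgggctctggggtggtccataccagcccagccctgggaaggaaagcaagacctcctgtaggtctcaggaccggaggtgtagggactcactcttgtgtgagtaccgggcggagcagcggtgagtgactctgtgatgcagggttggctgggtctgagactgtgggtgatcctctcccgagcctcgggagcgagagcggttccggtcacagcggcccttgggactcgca
Sst (chr16:23890845-23891094, minus strand): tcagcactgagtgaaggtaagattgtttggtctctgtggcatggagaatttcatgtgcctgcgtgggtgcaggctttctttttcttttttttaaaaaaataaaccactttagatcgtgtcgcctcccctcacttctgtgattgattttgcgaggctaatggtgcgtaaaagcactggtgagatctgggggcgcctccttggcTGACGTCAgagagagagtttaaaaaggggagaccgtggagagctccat
Vip (chr10:5638968-5639217, plus strand): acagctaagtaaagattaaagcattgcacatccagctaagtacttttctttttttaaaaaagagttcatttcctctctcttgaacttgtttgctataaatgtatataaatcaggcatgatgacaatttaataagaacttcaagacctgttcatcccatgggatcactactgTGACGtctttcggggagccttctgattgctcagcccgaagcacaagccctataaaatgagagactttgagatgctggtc
TGACG is the half-site of the palindromic cAMP response element TGACGTCA. Of the 9 members with a promoter entry (Penk had none in the table used), 6 held TGACG on either strand, namely Tac1, Trh, Sst, Cck, Vip and Nts, while 17.8% of 32851 mouse promoters of the same length did. Tac1 held it at 2 places, beginning 197 and 43 bases before the start. Trh held it 96 bases before the start. The full TGACGTCA was found in Sst alone, 48 bases before the start, where it contains TGACG on both strands, and in 1.55% of all promoters. The box TATAAA, searched on both strands, was in Pomc and Vip and in 12.4% of all promoters. A match describes the letters of this window and does not show that a factor bound there.

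CG dinucleotides in these windows ranged from 2 to 25, against a median of 6 over all promoters. CG-dense promoters are the ones that Polycomb complexes typically occupy in ESCs, as background. Trh had 25, more than 89.3% of all promoters. Npy had 21 and Tac1 had 17. Pomc had 15, Gal 11, Cck 9 and Sst 8. Vip had 3 and Nts had 2, both below the median. The changes of all members with OHT are given below, and a relation of CG count to OHT response was not tested.

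**Figure D1:**
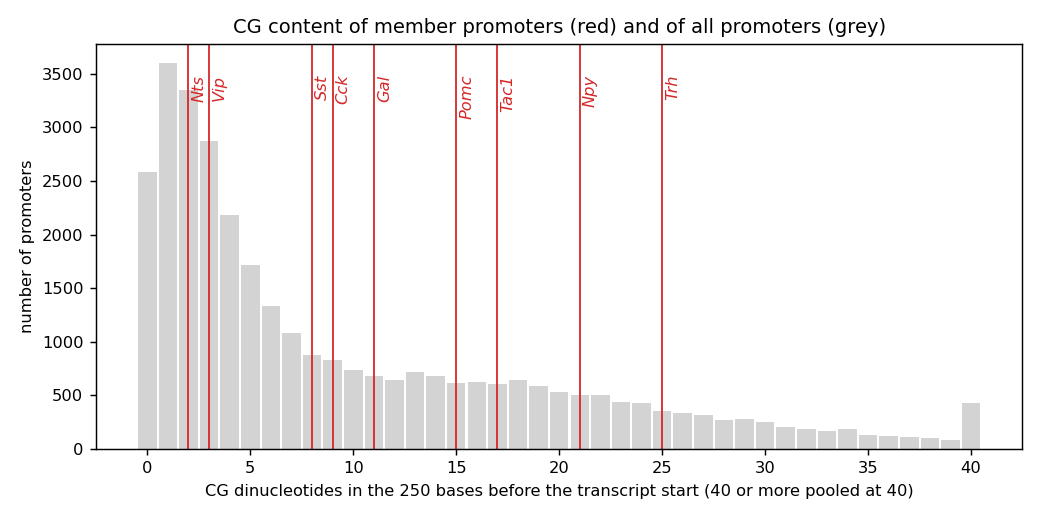
Number of CG dinucleotides in the 250 bases before the transcript start (x axis) against the number of mouse promoters (y axis, grey bars, all 32851 promoters), with red lines at the counts of the 9 members. Nts (2) and Vip (3) lie among the CG-poor promoters, and Npy (21) and Trh (25) lie far to the right of the median of 6.

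Levels are given as log2 signals after quantile normalization across the 12 arrays, and a change is the treated minus the untreated log2 signal of the same line. Levels of different probe sets cannot be set against each other on this array type. A bulk signal also cannot tell fewer cells of a type apart from less RNA per cell. Probe sets that never exceeded 3.94 (the 30th percentile of the values) were dropped. This left 11 of the 12 member probe sets and all 10 members among 16432 genes. Tac1, Vip and Nts passed only through arrays in which they were high, namely the treated mock and mutant arrays for Tac1, the treated mock array for Vip and both mock arrays for Nts.

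All 10 genes of a list of ESC markers were kept, with Pou5f1 between 12.34 and 12.87, Nanog between 12.36 and 12.72 and Sox2 between 11.51 and 12.5 over all arrays. Klf4, between 10.55 and 12.1, was the only one called, and it was higher after OHT in the mutant lines (0.55, SE 0.10, adjusted p = 0.0354 in limma). The median change of the list was -0.24 in the mutant lines, -0.19 for the mock transfectant and 0.04 in the WT transfectants. The summed signal of that list on the linear scale was 51218 to 60396 before OHT in the mutant lines and 51044 to 56142 after. The signals of Rnf2 (7.06 to 7.58) and Ring1 (5.24 to 6.49) do not check the deletions, because it was not given here whether their probe sets lie in the deleted exons.

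Tac1, the precursor of substance P and neurokinin A, was low in every line before OHT and higher after OHT in each line without WT Ring1B. Its signal before OHT was 3.09 in the mock transfectant, 3.42 and 3.32 in WT #1 and #3, 3.05 and 3.04 in I53S #1 and #4, and 3.53 in I53A. After OHT it was 5.05 in the mock transfectant, 2.79 and 3.53 in the WT transfectants, 5.0 and 6.37 in the I53S lines, and 6.10 in I53A. The treated mock and mutant arrays, through which Tac1 had passed the filter, did not overlap with any untreated array or with the treated WT arrays. The share of all genes that separate like this was not counted, here and for Penk, Gal and Trh below. The change was 2.62 ± 0.69 (SD, n = 3) in the mutant lines, 6.14-fold higher as a mean of log2 signals, and -0.62 and 0.22 in the WT transfectants. In the mock transfectant, which the choice of genes did not use, Tac1 changed by 1.96 with an SE of 0.50, which did not pass limma's test (adjusted p = 0.119). The second Tac1 probe set stayed between 2.81 and 3.59 on all arrays, below the level for keeping a probe set, and changed by -0.27 ± 0.18 (SD, n = 3) in the mutant lines. The higher Tac1 signal after OHT thus rests on 1 of its 2 probe sets.

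Penk encodes proenkephalin, from which the opioid peptides Met- and Leu-enkephalin are cut. It was 6.04 in the mock transfectant before OHT, 5.90 and 6.33 in the WT transfectants, 6.17 and 6.41 in the I53S lines, and 6.55 in I53A. After OHT it was 7.47 in the mock transfectant, 6.07 and 6.36 in the WT transfectants, 7.84 and 7.85 in the I53S lines, and 7.68 in I53A. The 4 treated arrays without WT Ring1B all lay above the other 8 arrays. The change in the mutant lines was 1.42 ± 0.27 (SD, n = 3), or 2.68-fold, with the smallest spread relative to its size among the 4 members whose mean change there was at least 1. Penk rose in the mock transfectant by 1.42 with an SE of 0.22 and passed limma's test (adjusted p = 0.0457). Penk was then the only member called higher in the mock transfectant, where 1.29% of all genes were called higher at an adjusted p under 0.05 (1.67% in either direction). This call was lost without the pairing by line (adjusted p = 0.0663) and when deposited values were used unchanged (0.0514), both in limma. Leaving out any 1 of the other 5 lines ended this and every other call in the mock transfectant. The change of Penk stayed between 1.41 and 1.44, but it is taken from the mock arrays alone. Other lines enter it only through normalization, so this is no check of the change.

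Gal encodes galanin. Its signal before OHT was 4.55 in the mock transfectant, 4.03 and 5.24 in the WT transfectants, 5.09 and 5.43 in the I53S lines, and 4.87 in I53A. After OHT it was 6.35 in the mock transfectant, 5.11 and 4.84 in the WT transfectants, 5.93 and 6.80 in the I53S lines, and 6.72 in I53A. The treated mutant and mock arrays were the 4 highest, but the changes overlapped with those of the WT transfectants, since WT #1 changed by 1.09 and I53S #1 by 0.85. WT #3 changed by -0.40. The mean change in the mutant lines was 1.36 ± 0.50 (SD, n = 3), and the change of 1.80 in the mock transfectant (SE 0.54) did not pass limma's test (adjusted p = 0.16).

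Cck, the precursor of cholecystokinin, differed among the mutant lines themselves. Its signal went from 3.44 to 5.03 in I53S #1 and from 3.77 to 5.58 in I53A, but only from 4.43 to 4.54 in I53S #4. It went from 4.55 to 4.09 in the mock transfectant and from 3.62 to 3.72 and 4.20 to 3.94 in the WT transfectants. The change in the mutant lines was therefore 1.17 ± 0.92 (SD, n = 3), an SD almost as large as the mean. The mock transfectant, with no Ring1B construct, changed by -0.46 (SE 0.57, adjusted p = 0.707 in limma).

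**Figure D2:**
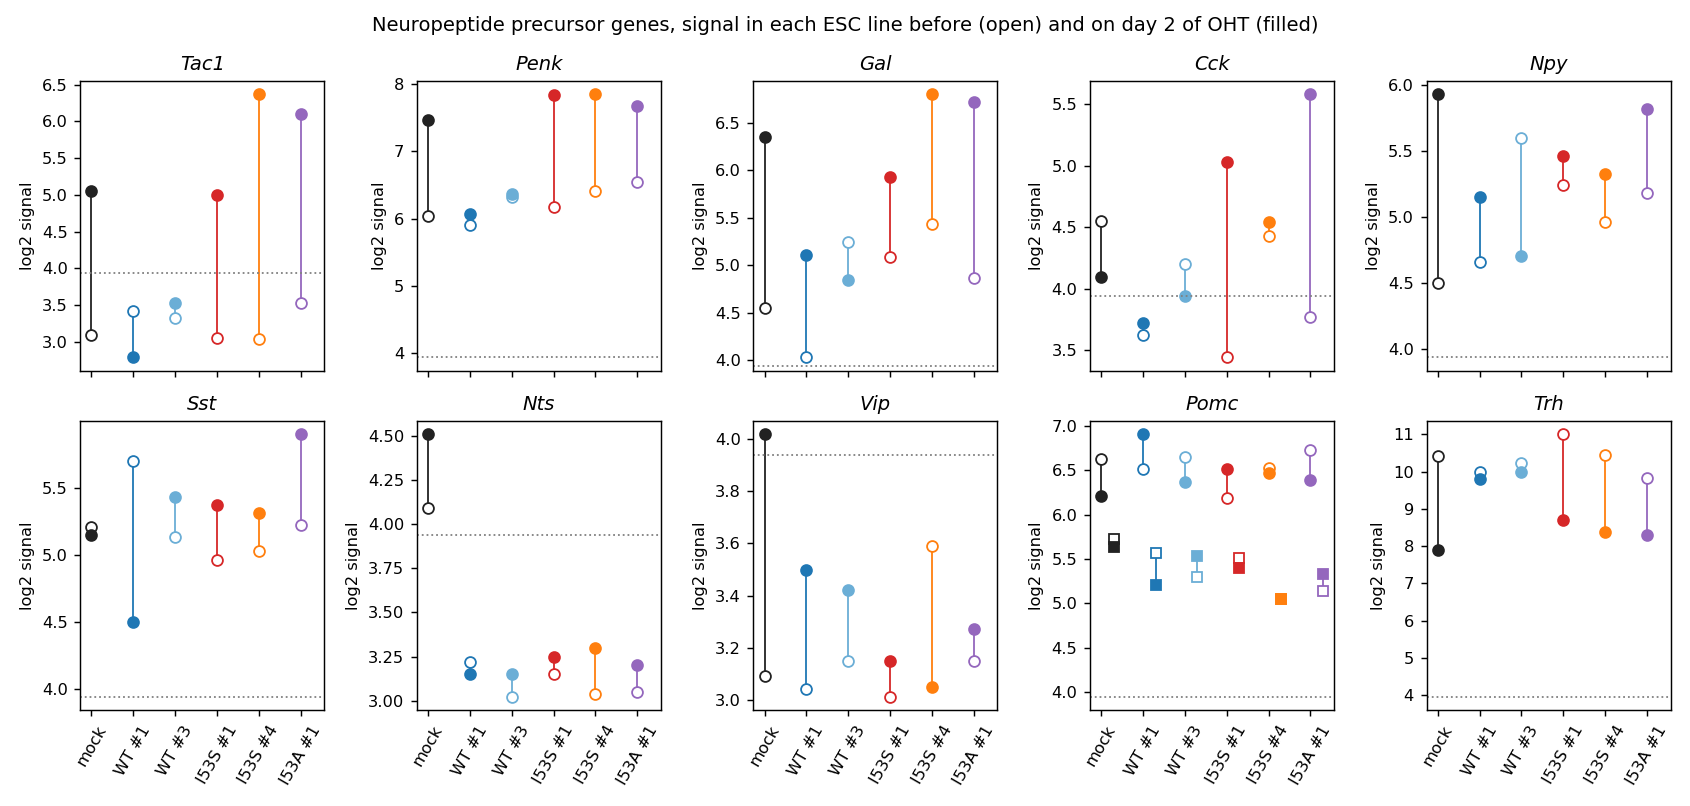
Log2 signal (y axis, own range in each panel) of the members in each ESC line (x axis) before OHT (open symbols) and on day 2 of OHT (filled symbols), 1 array per symbol, with the dotted line at 3.94, the level above which a probe set was kept. Squares in the Pomc panel are its second probe set. Tac1 and Penk are highest in the treated mock and mutant arrays, and Trh is lowest in those 4.

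Npy, Sst and Nts, which encode neuropeptide Y, somatostatin and neurotensin, changed by less than 1 in every mutant line. Npy changed by 0.22 and 0.38 in the I53S lines and 0.64 in I53A. The WT transfectants changed by 0.49 and -0.89, so that both I53S lines were within their range and I53A was above it. In the mock transfectant Npy went from 4.50 to 5.93, a change of 1.43 with an SE of 0.45 that did not pass limma's test (adjusted p = 0.169). The WT transfectants thus differed from each other by about as much as the mock transfectant changed.

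Sst changed by 0.41 and 0.28 in the I53S lines and by 0.68 in I53A, and by -0.06 in the mock transfectant. In WT #1 it went from 5.70 to 4.50, while in WT #3 it went from 5.13 to 5.43. The WT transfectants again covered a wider range than the mutant lines. Nts stood apart in the mock transfectant, with 4.09 before and 4.51 after OHT, against 3.02 to 3.30 on the 10 arrays of the other lines. Its changes in the mutant lines, 0.10, 0.26 and 0.16, were small, and its mock change of 0.42 (SE 0.16) did not pass limma's test (adjusted p = 0.226).

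Vip and Pomc, the precursors of vasoactive intestinal peptide and of corticotropin with beta-endorphin, had no common direction in the mutant lines. Vip was between 3.01 and 3.59 on all arrays but the treated mock array (4.02), and it changed by 0.15, -0.54 and 0.12 in the mutant lines and by 0.93 in the mock transfectant (SE 0.27, adjusted p = 0.155 in limma). The first Pomc probe set, between 6.19 and 6.91, changed by 0.32, -0.06 and -0.34 in the mutant lines. The second, between 5.05 and 5.73, changed by -0.11, -0.01 and 0.19. The signs of the Pomc probe sets were opposite in I53S #1 and I53A, and its gene mean in the mock transfectant changed by -0.26 (SE 0.15, adjusted p = 0.413 in limma).

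Trh encodes the precursor of thyrotropin-releasing hormone, the hypothalamic tripeptide that releases thyrotropin from the pituitary. It was the only member whose signal was lower after OHT in every mutant line. Before OHT it was 10.43 in the mock transfectant, 10 and 10.22 in the WT transfectants, 11.01 and 10.44 in the I53S lines, and 9.82 in I53A. After OHT it was 7.90 in the mock transfectant, 9.81 and 9.98 in the WT transfectants, 8.70 and 8.38 in the I53S lines, and 8.31 in I53A. The 4 treated arrays without WT Ring1B were all below the other 8 arrays, and none of them overlapped with a treated WT array. The change in the mutant lines was -1.96 ± 0.41 (SD, n = 3), a 3.89-fold lower mean, with -2.32, -2.05 and -1.51 in I53S #1, I53S #4 and I53A. In the mock transfectant Trh fell by 2.53 with an SE of 0.28, or 5.78-fold, and passed limma's test (adjusted p = 0.0329), as the only member called lower there, where 0.383% of all genes were called lower. Leaving out any 1 of the other 5 lines ended this and every other call in the mock transfectant. The change of Trh itself stayed between -2.55 and -2.52, which is no check of it, because it too is taken from the mock arrays alone.

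**Figure D3:**
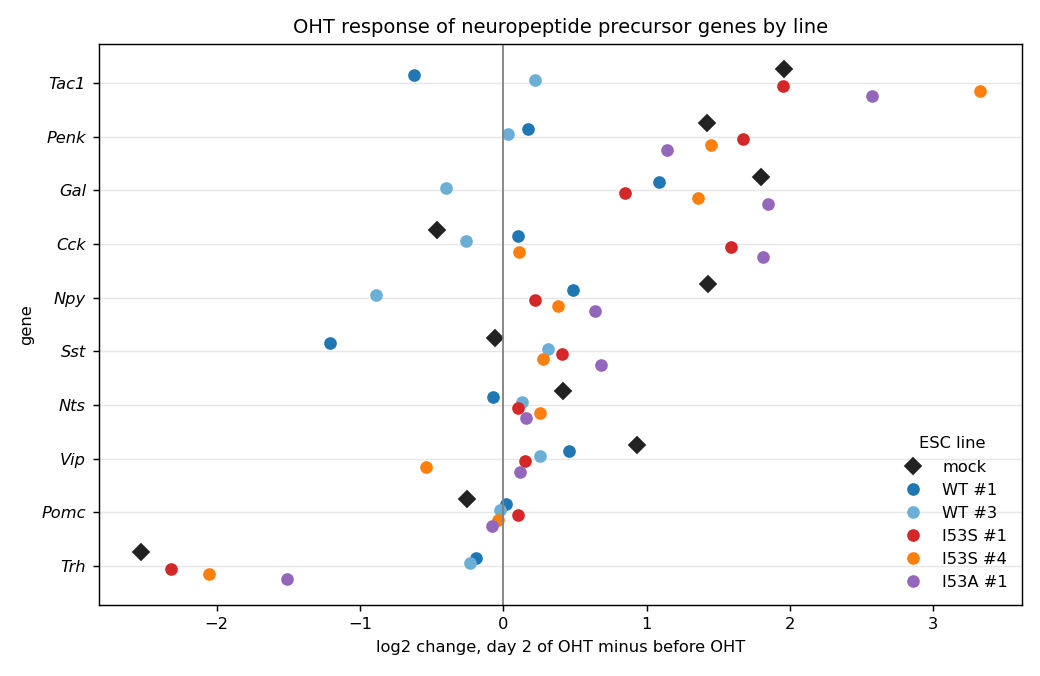
Change in log2 signal, day 2 of OHT minus before OHT (x axis), of each member (y axis) in the 6 ESC lines, 1 point per line. Tac1 and Penk are to the right of both WT transfectants in every mutant line and the mock transfectant, and Trh is to the left, while for Npy, Sst and Gal the WT transfectants span part of the same range.

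In the mock transfectant 7 of the 10 members had an unadjusted p under 0.05 in limma, against 19.9% of all genes. Of these, 3 (Tac1, Vip and Nts) had passed the filter with the help of its arrays. Tac1 and Trh, also among the 7, had prompted the choice of genes through their changes in the mutant lines. Nothing is read from this share.

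In the WT transfectants OHT called none of the members (adjusted p from 0.75 to 1 in limma), and it called 0 of 16432 genes, with 7.61% at an unadjusted p under 0.05. The mean changes of the members there ran from -0.45 for Sst to 0.36 for Vip. On simulated data the test in the WT transfectants called 29% of genes given a change of 1 log2 and 83% of those given 2 log2. For the mock transfectant these shares were 0% and 44%. The comparison of mock with WT responses called 0% of genes given a change of 2 log2. The absence of a call in these tests therefore does not show that a gene was unchanged or that the responses were alike. The difference between the mock and the WT responses was tested directly. It was -2.32 (SE 0.34) for Trh, 2.16 (SE 0.61) for Tac1 and 1.33 (SE 0.26) for Penk, and limma called none of the members (adjusted p from 0.126 to 0.849). It called 0 genes in this comparison, with 14.4% at an unadjusted p under 0.05, and with a trended and robust prior it called Trh (adjusted p = 0.00115) and Penk (adjusted p = 0.0211). That prior called 453 genes in this comparison, and 1340 instead of 275 in the mock transfectant itself. There it also called Tac1 (adjusted p = 0.0249 in limma), Gal (0.0272) and Npy (0.0478), and Tac1 had been kept only through arrays in which it was high.

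As a description of the group, 7 of the 10 members were above 0 in all 3 mutant lines (24% of all genes were) and 1 was below 0 in all 3 (23% of all genes). Of the members, 5 were above 0 in all 3 mutant lines as well as in the mock transfectant (19.6% of all genes). A mean change of at least 1 in the mutant lines was seen for 4 members, Tac1, Penk, Gal and Cck, and for 2.07% of all genes. A mean of -1 or less was seen for Trh alone, and for 0.183% of all genes. The choice of genes used this contrast, and nothing is read from these shares. In every mutant line Tac1, Penk and Cck changed by more than in both WT transfectants (16.1% of all genes did), Cck by only 0.01 in I53S #4, and Trh and Vip by less (15% of all genes). The median change over the members was 0.67 in the mock transfectant, 0.06 and 0.00 in the WT transfectants, 0.31 and 0.27 in the I53S lines and 0.66 in I53A, while the medians over all genes lay between -0.0088 and 0.0075.

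Before OHT the mutant and WT transfectants were compared for the 8 members other than Tac1 and Trh. Limma called none of them, with adjusted p from 0.951 to 0.998, and it called 0 of all genes, with 5.25% at an unadjusted p under 0.05. The largest difference was that of Gal, 0.50 higher in the mutant lines (SE 0.36), where the WT transfectants alone were 4.03 and 5.24. Penk differed by 0.26 (SE 0.20) and Sst by -0.35 (SE 0.21). For Tac1 and Trh the levels before OHT are given above without a test, and the mutant lines lay on both sides of the WT transfectants for each of them.

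The genes most like Tac1 and Trh over the 12 arrays were sought among 1170 genes with an SD of at least 0.5. For Tac1 they were Bhmt2 (Pearson r = 0.969), Kcnk6 (0.966) and Tlcd4 (0.965). Bhmt2 changed by 2.51 in the mock transfectant, 0.23 and 0.17 in the WT transfectants and 2.19, 2.49 and 2.74 in the mutant lines, which was nearly the same in each line without WT Ring1B, whereas Tac1 was more uneven there. For Trh they were 4833407H14Rik (r = 0.929), Socs2 (0.923) and Slc7a3 (0.918). Socs2, which encodes a suppressor of cytokine signalling, changed by -1.69 in the mock transfectant, -0.07 and -0.02 in the WT transfectants and -1.30, -0.89 and -1.14 in the mutant lines. The 12 points of each correlation are treated and untreated arrays of 6 lines and are not independent. Over the same arrays Tac1 and Penk correlated at 0.94, Penk and Gal at 0.91, and Tac1 and Trh at -0.89.

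Other neuropeptide precursors were examined as a list of 38 genes, of which 28 were named on the array and 25 kept. In the mutant lines 3 of the 25 rose, none fell, and the median change was 0.21, against calls for 4.91% of all genes higher and 1.55% lower (6.46% in all) and a median of -0.0067. Grp, which encodes gastrin-releasing peptide, rose most, by 2.08 (SE 0.28, adjusted p = 0.017 in limma). Its changes were 1.27, 2.46 and 2.52 in the mutant lines, 0.37 and -0.33 in the WT transfectants, and 1.93 in the mock transfectant (adjusted p = 0.116). The mutant and mock values were all above those of both WT transfectants. Prok2, encoding prokineticin 2, rose by 1.68 (SE 0.25, adjusted p = 0.0212), with 2.34, 1.76 and 0.95 in the mutant lines and 0.74 and 0.86 in the WT transfectants. It had the largest mock change of the list, 2.31 (adjusted p = 0.0693). Over all arrays the signal lay between 3.39 and 6.29 for Grp and between 3.2 and 5.7 for Prok2. Both ranges include the level for keeping a probe set. Nmu, encoding neuromedin U, rose by 1.01 (SE 0.20, adjusted p = 0.0453), but its WT changes of 0.78 and 0.79 were above that of I53S #4 (0.45). None of the 25 was called in the mock transfectant, where the median was 0.13.

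Receptors of the member peptides were a list of 34 genes with 27 kept. In the mutant lines 2 rose, 1 fell and the median change was 0.04. Oprd1, the delta opioid receptor to which enkephalins bind, rose by 1.10 (SE 0.17, adjusted p = 0.0231 in limma), with 1.49, 0.62 and 1.18 in the mutant lines, -0.12 and -0.17 in the WT transfectants and 0.28 in the mock transfectant. Oprd1 and Penk were thus both higher after OHT in every mutant line, but Oprd1 changed less in the mock transfectant than in any of them. The signal of Oprd1 lay between 2.76 and 4.49 over all arrays, a range that includes the level for keeping a probe set. Its rise was therefore measured near that level. Galr1, a galanin receptor, fell by 0.80 (SE 0.16, adjusted p = 0.0472), with -0.86, -1.16 and -0.39 in the mutant lines and 0.67 for the mock transfectant. With no filter, where its dimmer probe sets enter the average, Galr1 changed by -0.25 (adjusted p = 0.384). Tacr3, the tachykinin receptor that prefers neurokinin B, was called higher both in the mutant lines (0.49, SE 0.08, adjusted p = 0.03) and after OHT in the mock transfectant (1.08, SE 0.14, adjusted p = 0.0404), where it was the only receptor called. Its probe sets disagreed, and the one with the highest mean changed by -0.19 in the mutant lines and 0.15 for the mock transfectant.

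Enzymes that process precursors were 12 kept genes of a list of 13. Cpd, a carboxypeptidase that removes basic residues, was the only one called in the mutant lines, higher by 0.63 (SE 0.09, adjusted p = 0.0187 in limma), and the list's median was 0.14. None was called in the mock transfectant, where the median was 0.36 and the smallest p values were those of Cpd (0.51, adjusted p = 0.161) and Qpct (0.45, adjusted p = 0.177), the glutaminyl cyclase that forms the pyroglutamate end of peptides such as TRH. Proteins of secretory granules gave no call among 9 kept genes of 11, with a median of 0.11 in the mutant and -0.07 in the mock transfectants. The smallest p values in the mutant lines were those of Cadps2 (1.36, SE 0.31, adjusted p = 0.0652) and Ptprn2 (0.47, adjusted p = 0.0849), and in the mock transfectant those of Chgb (-1.13, adjusted p = 0.118) and Syt4 (-0.89, adjusted p = 0.242). Peptidases that degrade neuropeptides had 10 kept genes of 12. Ece1, the endothelin-converting enzyme, was the only one called in the mutant lines, by 0.47 (SE 0.09, adjusted p = 0.0422), but its changes of 0.38 and 0.42 in the WT transfectants lay above the 0.33 of I53S #4, and its mutant change was 0.15 on deposited values (adjusted p = 0.398) and 0.28 with no filter (adjusted p = 0.164). None was called in the mock transfectant, and the smallest p values were those of Prep (0.54, adjusted p = 0.132) and Ide (-0.39, adjusted p = 0.28).

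**Figure D4:**
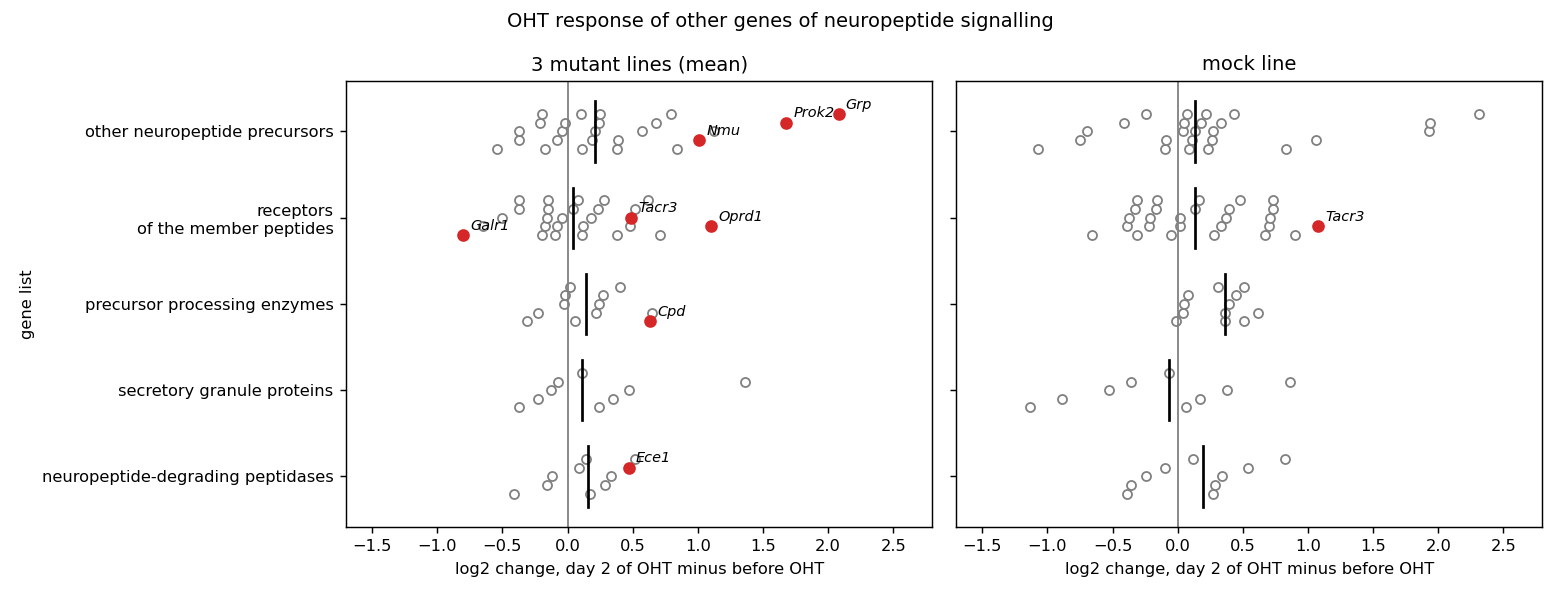
Change in log2 signal with OHT (x axis) of the genes in 5 lists of neuropeptide signalling (y axis) as the mean of the 3 mutant lines (left) and in the mock transfectant (right). Each circle is a gene, red circles are genes called by limma and black bars are list medians, and most genes lie near 0 while Grp, Prok2 and Oprd1 lie furthest to the right among those called in the mutant lines.

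Of the 83 genes kept from the 5 lists, 7 (8.43%) were called higher and 1 (1.2%) lower in the mutant lines, beside 4.91% and 1.55% of all genes, and none was called in the WT transfectants. Without I53S #1, I53S #4 or I53A the higher calls numbered 1, 2 and 1. Calls in either direction among all genes then fell from 1062 to 177, 193 and 153 in the mutant lines. The lower call was lost without any 1 of the 5 lines other than the mock transfectant. Among the called genes, the signals of Grp, Prok2, Nmu, Oprd1 and Galr1 ran from below to above the level for keeping a probe set. Whether they were kept only through arrays in which they were high was not tested. Each of the 7 rises lost its call without at least 1 line. Grp was lost without I53S #4 (adjusted p = 0.0828) or I53A (0.0831) but its change there was still 1.90 and 1.86, all in limma.

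Markers of other cell types were measured on the same arrays. Of 13 neuron markers, 11 were kept and none was called in any comparison, with medians of 0.08 in the mutant and 0.07 in the mock transfectant. In the mutant lines 9 of the 11 changed by more than 0, with Nefm highest at 0.70, and Syp (-0.19) and Stmn2 (-0.37) were below 0. Their summed linear signal was 2612 to 3604 before and 2436 to 2850 after OHT in the mutant lines. That sum mainly follows Stmn2, which had by far the largest signal of the 11 (10.67 to 11.62). Of 9 primitive endoderm markers, all kept, 3 were called higher in the mock transfectant, Gata6 (1.80), Foxa2 (1.88) and Col4a1 (1.37), with a median of 1.14. In the mutant lines Gata6 (0.52) and Col4a1 (0.56) were called, with a median of 0.44. The summed signal of this list went from 793 to 1606 in the mock transfectant, from a range of 932 to 1552 to a range of 1300 to 2101 over the mutant lines, and from 855 and 999 to 961 and 1125 in the WT transfectants. This sum mainly follows Col4a1 (8.34 to 10.35) and Lamb1 (8.33 to 9.01), which had the largest signals of the 9.

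Fibroblast markers, which the feeder layer would carry, had a median change of 0.64 in the mock transfectant, 0.34 in the mutant lines and -0.01 in the WT transfectants over 15 of 16 genes kept. Thy1 was called in the mock (1.32) and mutant lines (0.68), and Lox in the mutant lines (0.49). Their summed signal went from 5953 to 8509 in the mock transfectant and from 5972 to 9097 in I53S #1. It went from 5067 to 5684 in I53S #4 and from 3163 to 3128 in I53A. The brightest genes, among them Tagln (9.49 to 11.99 over all arrays), weigh most in that sum. The median log2 signal of the list went from 6.35 to 6.59 in I53A. The part of the ESC, primitive endoderm and fibroblast markers in the members' changes was not tested.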

How the data were processed

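The authors deposited a log2 signal for each probe set on each array. The submitters' processing notes name Affymetrix Expression Console and RMA, while the authors' supporting methods describe MAS5 signals with quantile normalization, both without versions. Medians of the deposited arrays ran from 4.66 to 5.67, so quantile normalization was applied. In the deposited values the array median went from 5.04 to 4.66 in the mock line.

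The table holds 45101 probe sets, and 64 of them are controls and were dropped. Of the others, 34945 had 1 gene symbol, 932 several and 9160 none listed, and 37446 passed the filter. Symbols followed the platform annotation, and 161 were not found in the RefSeq gene table. Probe sets with 1 symbol that were kept were averaged per gene. A single limma model covered all 12 arrays (lmFit, then eBayes, two-sided). It held a term for each line, as the replicate block, and an OHT term per class of construct. It left 3 residual degrees of freedom, and the prior added 2.79. Versions were limma 3.58.1, R 4.3.3 and statmod 1.5.0. The mock class has 1 line and is assumed to vary like the others. The Benjamini-Hochberg adjustment ran over 16432 genes, and genes under an adjusted p of 0.05 were called. The 6 untreated arrays were fitted separately for levels before OHT. The block is the cell line itself, and deviations from the class means correlated between both arrays of a line at 0.27 in WT and 0.36 to 0.43 in mutant lines. Copies among the arrays were looked for and none found. Precision is limited by the number of arrays.

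The members, gene lists and markers were chosen with earlier results of these data known, and the motifs were chosen with the promoter sequences at hand. Named were every member, for each list up to 4 called genes with the largest change over the mutant lines and likewise for the mock line (with none called, the 2 smallest p), and the 3 genes most like Tac1 and like Trh. Scripts were tested on simulated data. Alternatives were deposited and median-centred values, the probe set with the highest mean, a fit per probe set, no filter and a filter on the mean, trended and robust priors, no block, I53S alone as the mutant class, a change over 0.5 as a further condition, and each line left out.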

Additional observations from a re-analysis of the deposited data

How the results depend on the processing

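Members called in the mock line depended on the settings. The 1 called higher (Penk) became 0 on deposited values, the probe set with the highest mean, a fit per probe set, no pairing by line (no replicate block) and I53S alone as mutant class, and 4 with the trended and robust prior. The 1 called lower (Trh) became 0 with a fit per probe set and with I53S alone. Each count was 0 when a WT or mutant line was left out (0 to 0). The fit per probe set, the I53S class and each fit with a WT or mutant line left out called 0 of all genes in the mock line. The threshold thus moved in these settings. The changes of Penk and Trh could hardly move, because they are taken from the arrays of the mock line alone. Other lines enter them only through normalization, and neither gene has a second probe set. For the mock minus WT difference the trended and robust prior called 2 members instead of 0, and 453 of all genes instead of 0. No setting called a member in the WT lines or before OHT.

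In the mutant lines 7 members were above 0 in every line, 5 on deposited values and 4 with the filter on the mean, which kept 6 members. With lines left out the count was 6 to 8, and the count below 0 was 1 to 2, with 2 without I53S #1. Genes of the 5 pathway lists called higher numbered 7, and 4 with deposited values, 14 with the trended and robust prior, 1 with I53S alone and 1 to 7 with lines left out. Those called lower numbered 1, and 3 with deposited values, 0 with the highest-mean probe set, a fit per probe set, no filter, no replicate block and I53S alone, 2 with the filter on the mean, 3 with the trended prior, and 0 to 1 with lines left out. Without the block 563 genes were called in the mutant lines instead of 1062, and 97 instead of 275 in the mock line. With the trended and robust prior 2219 of all genes were called in the mutant lines, and with I53S alone 153. Tacr3 in the mutant lines turned to -0.19 with the highest-mean probe set and with the filter on the mean, because both keep only its probe set with the highest mean. The mean change of Tac1 in the mutant lines was 1.06 with deposited values and 1.18 with no filter, where its dim second probe set enters the average, and that of Nts was 0.04 with deposited values.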
